A study of Homo sapiens with 6 samples.

Results

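The ELAVL (Hu) and CELF families of RNA-binding proteins were followed from human embryonic stem cells to neurons made from them. The 10 genes were ELAVL1, ELAVL2, ELAVL3, ELAVL4 and CELF1 to CELF6, each taken as the entry of the count table whose Ensembl identifier carries that symbol, 10 of 61853 entries. All 10 had reads, and all 10 were kept by the filter on low counts. Between day 0 and day 30, 8 of them rose and 2 fell (edgeR's quasi-likelihood test, Benjamini-Hochberg adjusted p under 0.05), where 76.6% of the 18040 genes tested passed in either direction, 39.8% higher and 36.8% lower.

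The cells were H9, an established human embryonic stem cell line, sampled by total RNA sequencing with 3 libraries on day 0 and 3 on day 30 of differentiation. Day 0 was the undifferentiated line on Matrigel. Day 30 was the same line after serum replacement and N2 media with sonic hedgehog (SHH) and purmorphamine, an activator of that pathway, SB431542 and LDN-193189, which block TGF-beta and BMP receptors, then B-27 with the Notch pathway inhibitor DAPT, replating in ROCK inhibitor, and finally BDNF. The series calls the product arcuate neurons, hypothalamic cells that include those making POMC, and its stated interest is in genes of ribosomal RNA maturation. All libraries share 1 cell line, and nothing in the labels says that the 3 libraries of a day came from separate cultures, so p-values measure only the spread between these libraries, which may be technical.

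ELAVL proteins carry RNA recognition motifs and bind U-rich and AU-rich stretches in introns and in the untranslated ends of mRNAs, where they are known for stabilising messages and steering splicing. ELAVL1 (HuR) is made in nearly all cells, and ELAVL2 (HuB), ELAVL3 (HuC) and ELAVL4 (HuD) are known as neuronal proteins, long used as markers of neurons. CELF proteins have several such motifs, bind GU-rich sequence, and act in alternative splicing, deadenylation and translation. CELF1 and CELF2 are broadly made, and CELF3 to CELF6 form the other branch of the family, found mainly in the nervous system.

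The members are close enough in sequence to ask whether reads can be told apart. Coding sequences were read from the GENCODE release 29 transcripts (build GRCh38). Within the ELAVL family, protein identity over aligned residues ran from 70.2% (ELAVL1 with ELAVL3) to 87.4% (ELAVL2 with ELAVL4). Identity of the coding bases was lower, from 71.4% to 77.5%, and the longest run of identical bases between any pair was 26. The 60-base coding stretches below span the RNP1 element of the first recognition motif, the short conserved run of residues that contacts RNA, with 6 codons on each side. They are printed 5′ to 3′ in the sense of the transcript, and capitals mark bases that differ from ELAVL1.
ELAVL1: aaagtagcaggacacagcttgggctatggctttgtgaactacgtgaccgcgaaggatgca
ELAVL2: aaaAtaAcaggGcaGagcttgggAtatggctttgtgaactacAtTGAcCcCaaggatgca
ELAVL3: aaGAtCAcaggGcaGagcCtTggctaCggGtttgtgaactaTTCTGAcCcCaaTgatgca
ELAVL4: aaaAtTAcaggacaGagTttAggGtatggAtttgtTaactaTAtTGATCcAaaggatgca
Over this stretch the neuronal members differed from ELAVL1 by 11 (ELAVL2), 19 (ELAVL3) and 17 (ELAVL4) bases. The capitals fall mostly singly or in short runs. Only coding bases were compared, and whether reads were told apart was not tested.

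In the CELF family, CELF1 and CELF2 had 80.3% protein identity and CELF3 to CELF6 had 67.9% to 75.1% among themselves, against 50.8% to 56.0% between the branches. The longest run of identical bases was 47, between CELF4 and CELF5, and 29 or fewer in every other pair. The stretches shown to compare the branches are those over the RNP1 element of the second recognition motif, with capitals for bases that differ from CELF1.
CELF1: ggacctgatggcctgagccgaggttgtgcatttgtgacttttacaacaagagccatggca
CELF2: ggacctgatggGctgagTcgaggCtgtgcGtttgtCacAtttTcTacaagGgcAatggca
CELF3: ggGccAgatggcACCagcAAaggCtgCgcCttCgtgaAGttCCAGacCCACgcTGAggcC
CELF4: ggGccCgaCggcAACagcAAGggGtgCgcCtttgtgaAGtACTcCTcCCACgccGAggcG
CELF5: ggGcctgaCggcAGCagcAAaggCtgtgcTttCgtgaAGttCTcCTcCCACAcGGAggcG
CELF6: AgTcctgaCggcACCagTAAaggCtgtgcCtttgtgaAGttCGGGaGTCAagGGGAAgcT
CELF2 differed from CELF1 at 10 bases and CELF3, CELF4, CELF5 and CELF6 at 25, 26, 25 and 27. All 10 stretches cross an exon junction in the genome.

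Total counts were 7178453 to 8794008 per library on day 0 and 5013643 to 12924842 on day 30, with day 30 replicate 3 the shallowest. The labelled cell types were checked on marker lists, as counts per 1000000 counts of the library (CPM) summed over each list. All 12 pluripotency markers fell, from 6620 to 7080 CPM on day 0 to 33.4 to 43.8 CPM on day 30. All 15 general neuronal markers rose, from 605 to 652 CPM to 9260 to 10900 CPM. Of 16 hypothalamic and arcuate markers 10 rose and 1 of the 11 tested did not pass, the sum going from 2.65 to 5.8 CPM to 3220 to 4970 CPM. On day 30 that sum was mostly SST (2140 ± 553 CPM) and POMC (1560 ± 333 CPM). NPY, AGRP, GHRH, KISS1 and RAX were too low to test. Day 0 sums were 1720 to 2460 CPM for neural progenitor markers and 716 to 1130 CPM for astroglial markers. They were 125 to 189 CPM for oligodendroglial markers and 195 to 248 CPM for endothelial markers, all above those of day 30. On day 30 the sums were 990 to 1220 CPM for neural progenitors and 278 to 398 CPM for astroglia. Oligodendroglia had 30.9 to 61.3 CPM (MOG at 0) and endothelium 3.87 to 7.18 CPM. Heart and muscle had 24.2 to 30.7 CPM, and blood and microglia 0.309 to 0.929 CPM (CD3E and AIF1 at 0). The astroglial sum was mostly SLC1A2, a glutamate transporter that rose from 6.95 ± 2.07 to 238 ± 3.32 CPM, and GJA1, which fell from 869 ± 204 to 112 ± 70.4 CPM, with GFAP at 0.606 ± 0.18 CPM on day 30. The muscle sum was 111 to 181 CPM on day 0, and of 6 genes tested 2 rose and 3 fell. ACTC1 fell from 124 ± 39.5 to 2.28 ± 1.09 CPM. On day 30 the sum was mostly the cardiac myosin genes MYH7 (17.4 ± 1.71 CPM) and MYH6 (5.5 ± 1.04 CPM). Both had 0 reads on day 0, while MYOD1 and MYOG had 0 on both days. Mesenchymal markers stood apart in 1 library: from a sum of 233 to 325 CPM on day 0, 8 of 8 were detected on day 30, at 176 CPM in replicate 1, 660 CPM in replicate 2 and 4660 CPM in replicate 3.

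ELAVL1, the ubiquitous member (ENSG00000066044.15, chromosome 19, 7958579 to 8005659, minus strand; positions are those of GENCODE 29 on GRCh38), was at 82.1, 75.1 and 79.7 CPM in day 0 replicates 1, 2 and 3 and at 63.4, 59.3 and 47.7 CPM on day 30. The days did not overlap, and the lowest value was that of replicate 3, the day 30 library rich in mesenchymal markers. ELAVL1 fell by 0.56 ± 0.13 (SE) on the log2 scale, 1.47-fold, with an adjusted p of 0.00298. Without day 30 replicate 3 the fall was smaller, at -0.41 on the log2 scale, and still passed (adjusted p = 0.00771). Of all genes tested, 33.9% had a log2 fold change at or below that of ELAVL1. In bulk RNA a lower level from fewer cells of a type and from less RNA per cell cannot be told apart.

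The neuronal members did not start from the same place. ELAVL2 (ENSG00000107105.15, chromosome 9, 23690104 to 23826337, minus strand) was already at 51.7, 54.9 and 38.9 CPM on day 0. Its day 30 values were 288, 262 and 248 CPM, all above every day 0 value. ELAVL2 rose 5.18-fold (log2 2.37 ± 0.14, adjusted p = 7.96e-08).

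ELAVL3 (ENSG00000196361.10, chromosome 19, 11451326 to 11481046, minus strand), the member whose protein is a common early marker of postmitotic neurons, was at 0.451, 0 and 0.796 CPM on day 0, from 10.5 reads in all. On day 30 it was at 91.2, 78.8 and 78.7 CPM. The rise was 163-fold (log2 7.35 ± 0.34, adjusted p = 1.13e-08), and because it rests on so few day 0 reads it was 8.13 on the log2 scale without day 0 replicate 3. An overlapping entry on the same strand, AC008481.3, shares 5.38% of the exon bases of ELAVL3. That entry extends beyond ELAVL3, up to 11505698. With all its reads added, the sum rose by 6.59 ± 0.25 on the log2 scale (adjusted p = 3.41e-09). The sum can hold reads from outside ELAVL3.

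ELAVL4 (ENSG00000162374.18, chromosome 1, 50048014 to 50203786, plus strand), known for binding GAP43 mRNA in growing axons, had 1 read on day 0, in replicate 2, which was 0.139 CPM. The other two libraries of that day had 0. On day 30 it had 57.7, 56.8 and 56.2 CPM, the narrowest spread of the family, from 1575 reads. The ratio was 1350, with a 95% counting interval of 242 to 53500, and the test across genes passed (adjusted p = 1.87e-09). Without day 0 replicate 2 no day 0 read is left.

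**Figure D1:**
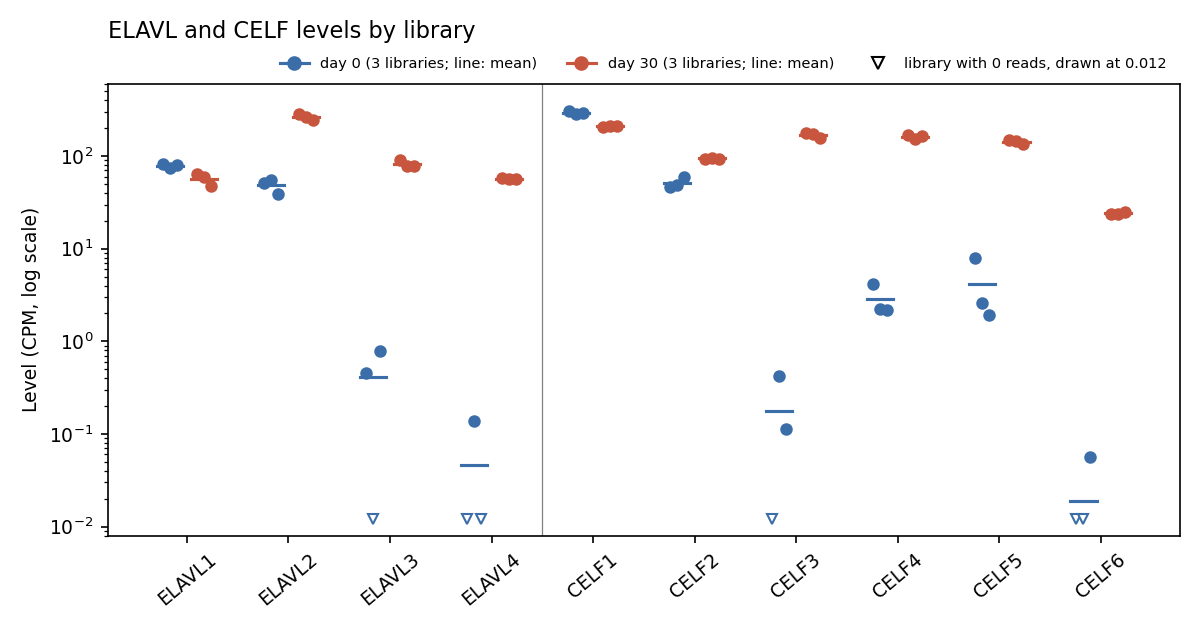
Level of each member in CPM (log axis) in the 3 day 0 libraries (blue) and the 3 day 30 libraries (red), with a line at each mean. Open triangles are libraries with 0 reads. ELAVL1 and CELF1 are the members whose day 30 points lie lower. ELAVL3, ELAVL4, CELF3 and CELF6 have day 0 points under 1 CPM.

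CELF1 (ENSG00000149187.19, chromosome 11, 47465933 to 47565569, minus strand), known for promoting deadenylation of GU-rich mRNAs and for its part in myotonic dystrophy, was the most abundant CELF gene on day 0. It was at 304, 287 and 291 CPM on day 0 and at 205, 210 and 213 CPM on day 30. The days did not overlap, and CELF1 fell by 0.58 ± 0.10 on the log2 scale, 1.5-fold (adjusted p = 0.000258). A change this low or lower was seen in 33.3% of genes tested. Its 2 neighbours on the other strand, NDUFS3 and PTPMT1, share 2.24% and 1.34% of its exon bases.

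CELF2 (ENSG00000048740.19, chromosome 10, 10798397 to 11336675, plus strand), a splicing regulator of heart, brain and lymphocytes, moved the other way. It was at 46.9, 48.5 and 59.8 CPM on day 0 and at 93.4, 96.2 and 93.5 CPM on day 30. It rose 1.7-fold (log2 0.77 ± 0.13, adjusted p = 0.000349), with no overlap between the days. That is a modest rise among these genes, since 34.1% of all genes tested rose at least as much.

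The genes of the other branch started low and all rose. CELF3 (ENSG00000159409.15, chromosome 1, 151702404 to 151716814, minus strand), a splicing activator of the nervous system, had 0, 0.418 and 0.114 CPM on day 0, from 4 reads in all, and 180, 172 and 157 CPM on day 30, from 4752 reads. The fitted change was 871-fold (log2 9.77 ± 0.31, adjusted p = 1.44e-09). It was 11.05 on the log2 scale without day 0 replicate 2, which holds 3 of the 4 reads, and 9.17 without replicate 1, which holds none.

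CELF4 (ENSG00000101489.20, chromosome 18, 37243047 to 37566037, minus strand), a regulator of neuronal excitability in mice, was low but measurable on day 0, at 4.12, 2.23 and 2.16 CPM. It reached 168, 152 and 163 CPM on day 30. The rise was 53.3-fold (log2 5.74 ± 0.19, adjusted p = 1.82e-09). Antisense entries share little of its exon sequence. The largest shares were 3.93% for AC090386.1, which had 0 reads, and 2.59% for AC015961.2. AC009899.1 shares 0.536% and went from 0.127 ± 0.0129 to 10.8 ± 3.08 CPM.

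CELF5 (ENSG00000161082.13, chromosome 19, 3224703 to 3297076, plus strand) was uneven between the day 0 libraries, at 7.86, 2.58 and 1.93 CPM. Day 0 replicate 1 stood above the other two. Day 30 values were 148, 144 and 134 CPM, and CELF5 rose 32.9-fold (log2 5.04 ± 0.34, adjusted p = 1.95e-07). Without day 0 replicate 1 the rise was larger, 5.84 on the log2 scale (adjusted p = 2.05e-08).

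CELF6 (ENSG00000140488.16, chromosome 15, 72284727 to 72320129, minus strand), a splicing regulator of brain, was the least certain of the 10. Its own entry had 0, 0 and 0.0569 CPM on day 0, the last from a fraction of 0.5 reads, and 23.8, 23.7 and 24.9 CPM on day 30, from 661 reads. Against a floor of 3 reads over the day 0 group this is at least 189-fold higher (adjusted p = 6.5e-08), and the fitted log2 value of 10.65 is no bound. The annotation places 2 further protein-coding entries over many of the same exons on the same strand. Both extend beyond CELF6, AC009690.1 up to 72375981 and AC009690.3 from 72266746. AC009690.1 covers 88.7% of the exon bases of CELF6 and went from 9.18 ± 0.565 to 38.3 ± 4.75 CPM. AC009690.3 covers 43.1% and went from 2.88 ± 0.43 to 21.9 ± 0.717 CPM. With the reads of all 3 entries added, the level was 12.9, 12.0 and 11.4 CPM on day 0 and 79.9, 82.1 and 91.0 CPM on day 30. The rise was then 2.71 ± 0.12 on the log2 scale (adjusted p = 8.24e-09). The direction held, and the size depends on which entry the shared reads are given to. The sum can also hold reads from parts of the added entries that lie outside CELF6.

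Among the 10 genes, 4 exceeded the level of the low-count filter (1.21 CPM) on day 30 alone. These were ELAVL3, ELAVL4, CELF3 and CELF6, which, once tested, had to differ. The other 6 exceeded it in every library of both days. All 10 had CPM ranges that did not overlap between the days, as did 79.4% of the genes tested. The median fitted log2 fold change was 4.86 over the 4 ELAVL genes and 5.39 over the 6 CELF genes, beside 0.08 over all genes tested. With overlapping entries added these medians were 4.48 and 3.88. With CELF6 at its bound, its family's median was again 5.39. It could not change, because CELF6 at its bound still lies above CELF4 and CELF5, the middle genes.

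**Figure D2:**
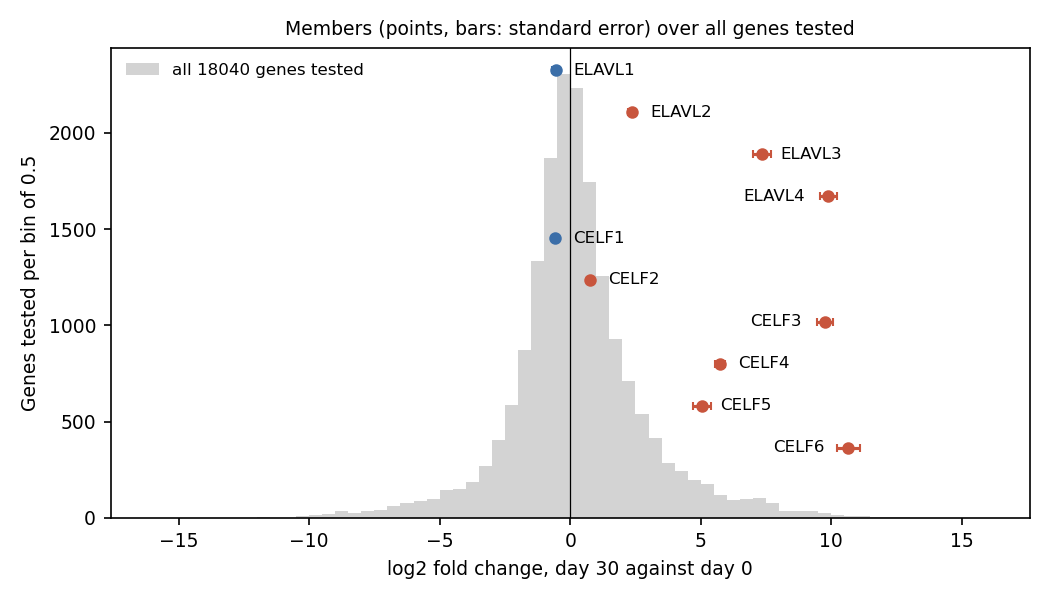
Grey bars count all 18040 genes tested by fitted log2 fold change, day 30 against day 0, in bins of 0.5. Points are the 10 members, placed at arbitrary heights, with bars for the standard error. ELAVL1 and CELF1 lie just left of 0. ELAVL4, CELF3 and CELF6 lie far to the right, and the place of each depends on very few day 0 reads or, for CELF6, on none.

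Levels of different genes were compared after division by exon length, as CPM per kb. In the ELAVL family on day 0 the order was ELAVL1 (11.4 ± 0.513 CPM per kb; SD, n = 3), ELAVL2 (9.43 ± 1.65), then ELAVL3 and ELAVL4, both under 0.1. The ranges of ELAVL1 and ELAVL2 did not overlap but came close, with a lowest ELAVL1 value of 10.8 and a highest ELAVL2 value of 10.7 CPM per kb. On day 30 ELAVL2 was first (51.8 ± 4.01), ELAVL3 second (17.4 ± 1.52), and ELAVL4 (8.17 ± 0.105) and ELAVL1 (8.16 ± 1.17) overlapped. ELAVL1, first on day 0 by this measure, was thus the lowest or level with the lowest in the neuron cultures. Its narrow day 0 lead over ELAVL2 depends on the length used.

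As a share of the family's summed CPM per kb, ELAVL1 held 53.8%, 50.2% and 59.7% on day 0 and 9.84%, 10.1% and 8.6% on day 30. ELAVL2 went from 45.0% ± 5.18 to 60.5% ± 0.0143. ELAVL3 reached 20.4% ± 0.604 and ELAVL4 9.59% ± 0.605. With the longest transcript as the length in place of all exons, ELAVL4 held 12.9% and ELAVL1 8.46% on day 30. On day 0 ELAVL1 then held 50.8% and ELAVL2 48.8%, nearly level. The family sum went from 20.9 ± 1.48 to 85.5 ± 6.6 CPM per kb, a ratio of 4.1. No test was made of these shares.

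In the CELF family CELF1 stood alone on day 0 at 28.1 ± 0.848 CPM per kb. CELF2 followed at 4.71 ± 0.641, CELF5 (0.685 ± 0.54) and CELF4 (0.434 ± 0.171) overlapped, and CELF3 and CELF6, both under 0.1, overlapped too. On day 30 CELF3 led at 38.2 ± 2.64, CELF4 (24.7 ± 1.22) and CELF5 (23.6 ± 1.16) overlapped, and CELF1 (20.0 ± 0.388), CELF2 (8.6 ± 0.142) and CELF6 (6.72 ± 0.184) followed in that order without overlap. CELF3, among the lowest on day 0, was thus first on day 30. The place of CELF6 on both days is that of its own entry alone. Before division by length that entry had 0.019 ± 0.0328 and 24.1 ± 0.661 CPM. With the overlapping entries the level was 12.1 ± 0.763 and 84.3 ± 5.85 CPM, also before division by length. These values cannot be set beside the CPM per kb above, and no place was worked out from them.

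CELF1 held 82.4%, 83.9% and 81.9% of the family's summed CPM per kb on day 0 and 15.6%, 16.6% and 17.2% on day 30. CELF1 and CELF2 together held 96.6% on day 0 and 23.5% on day 30. On day 30 CELF3 held 31.3% ± 1.33, CELF4 20.3% ± 0.971, CELF5 19.3% ± 0.457 and CELF6 5.52% ± 0.295. All CELF shares and sums count CELF6 by its own entry alone, and none was computed with the overlapping entries. The family sum went from 34.0 ± 1.28 to 122 ± 3.55 CPM per kb, a ratio of 3.58. Without division by length the ratio was 2.27, CELF1 and CELF2 together held 38.0% on day 30, and CELF1, with 26.2%, came before CELF3, with 21.2%. These shares too are descriptions, of RNA and not of protein.

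**Figure D3:**
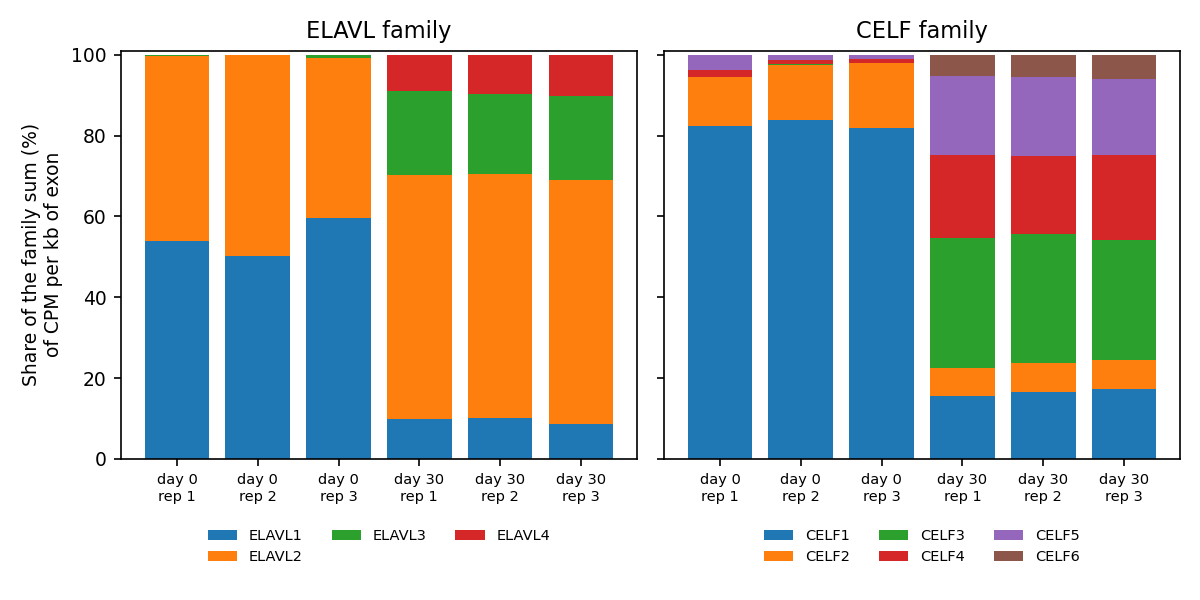
Share of each member in its family's summed CPM per kb of exon, in percent, by library. ELAVL1 and CELF1 (blue, bottom) shrink from the 3 day 0 bars to the 3 day 30 bars. ELAVL2 (orange) holds 60.5% of the ELAVL sum on day 30, and CELF3, CELF4 and CELF5 share most of the CELF sum.

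For each member, the genes with the most similar profile over the 6 libraries were found among 11039 well-expressed genes, by the root mean square distance of log2(CPM + 0.1) centred on each gene's mean. For members near 0 on day 0 the added 0.1 CPM weighs on the distance, so their closest genes can differ from them in fitted fold change. ELAVL1 was closest to ECH1 (distance 0.03) and UNC119B (0.05), and CELF1 to RALGPS2 (0.02) and ALG1 (0.03). ELAVL2 was closest to SLC35F1 (0.03) and KIF3C (0.06), and CELF2 to COG3 (0.03) and RAB21 (0.05). CELF4 was closest to CHD5 (0.09) and NRXN2 (0.10), with CHD5 going from 2.97 to 161 CPM, next to 2.84 and 161 CPM for CELF4 itself.

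The other members had larger distances, from 0.17 up. ELAVL3 was closest to SLC6A17 (0.40) and MAP6 (0.46), and ELAVL4 to NSG2 (0.39) and PCDH9 (0.43). CELF3 was closest to SV2C (0.27) and again PCDH9 (0.60). CELF5 was closest to OPCML (0.18) and GPM6A (0.27), and CELF6 to LONRF2 (0.17) and SCG2 (0.21), whose fitted log2 fold changes of 7.31 and 7.83 were below the 10.65 of CELF6.

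Genes for proteins that compete with ELAVL1 at AU-rich elements mostly fell. Those for the machinery that then degrades the message went both ways. Of 16 such genes 15 were tested, and 10 fell, 3 rose and 2 did not pass (median log2 -0.63, beside 0.08 over all genes). Over all genes tested 39.8% rose and 36.8% fell, the shares to set beside this list and those that follow. ZFP36L2, a destabilising protein of the tristetraprolin family, fell by 3.72 ± 0.18 on the log2 scale (38.0 ± 6.35 to 3.14 ± 0.579 CPM, adjusted p = 1.71e-08). Its relative ZFP36L1 went from 57.6 ± 1.44 to 15.3 ± 6.95 CPM (log2 -2.04 ± 0.27, adjusted p = 3.94e-05). DCP2, the decapping enzyme, went from 436 ± 15.0 to 57.1 ± 1.71 CPM. The 3 that rose were the exonuclease XRN1 (57.1 ± 3.57 to 119 ± 13.1 CPM, log2 0.96 ± 0.12), the decapping cofactor DCP1A (log2 0.71) and the deadenylase CNOT6L (log2 0.66). TIA1 (log2 0.17, adjusted p = 0.194) and CNOT7 (log2 -0.20, adjusted p = 0.202) did not pass, and PARN was too low to test.

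Of 17 other splicing regulators 11 rose, 4 fell and 2 did not pass (median log2 0.50). SRRM4, which promotes neural microexons, rose most, from 2.68 ± 0.522 to 122 ± 8.21 CPM (log2 5.40 ± 0.16, adjusted p = 1.14e-09). PTBP1, the repressor of neuronal exons in other cells, fell most, from 299 ± 21.9 to 40.3 ± 6.36 CPM (log2 -2.98 ± 0.13, adjusted p = 8.27e-09), and its neuronal relative PTBP2 rose by 0.50 on the log2 scale. The MBNL proteins, which act against CELF proteins on shared exons, were unequal. MBNL2 rose from 3.02 ± 0.849 to 64.3 ± 4.67 CPM (log2 4.30) and MBNL3 did not pass (log2 0.28, adjusted p = 0.256). MBNL1 passed narrowly, at 41.5 ± 5.11 and 58.9 ± 11.9 CPM (log2 0.40 ± 0.16, adjusted p = 0.0375), and not when replicate 1 or 3 of day 0, or replicate 2 or 3 of day 30, was left out (adjusted p from 0.0831 to 0.162). The other genes that fell were PTBP3 (log2 -1.32), KHDRBS1 (-0.64) and QKI (-1.43), and RBFOX1 did not pass (log2 -0.43, adjusted p = 0.211).

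**Figure D4:**
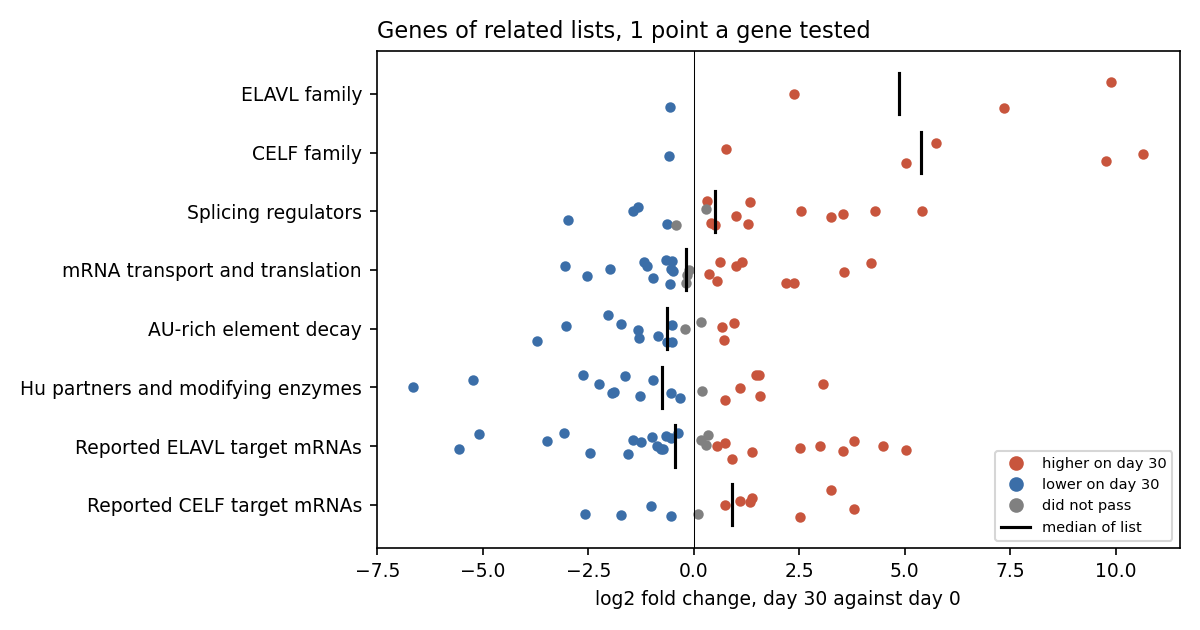
Fitted log2 fold change, day 30 against day 0, of each tested gene of both families and of 6 related lists, with a black line at each list's median. Red points rose, blue points fell and grey points did not pass. Vertical scatter within a list is only for legibility. The family points reach from just left of 0 to 10.65, and the related lists have points on both sides of 0.

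Among 23 genes of mRNA transport and translation 9 rose, 11 fell and 3 did not pass (median log2 -0.19), where 39.8% of all genes rose and 36.8% fell. CPEB3, a translational regulator of synapses, rose most, from 2.54 ± 1.31 to 48.9 ± 4.15 CPM (log2 4.19 ± 0.26, adjusted p = 9.89e-08), and CPEB1, CPEB2 and CPEB4 also rose (log2 2.37, 3.57 and 2.19). G3BP1, a core protein of stress granules, fell most, from 905 ± 48.4 to 116 ± 13.6 CPM (log2 -3.06 ± 0.13, adjusted p = 7.05e-09). The IGF2BP genes, whose products are known for stabilising mRNAs in embryonic cells, all fell (log2 -1.99, -1.18 and -2.53 for IGF2BP1, IGF2BP2 and IGF2BP3). Among those that did not pass were FMR1 (log2 -0.19, adjusted p = 0.155) and PUM2 (log2 -0.16, adjusted p = 0.165).

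Of 20 partners of Hu proteins and enzymes that modify them 18 were tested, and 6 rose, 11 fell and 1, PRKCD, did not pass (log2 0.19, adjusted p = 0.397; median of the list -0.76). The ELAVL1 ligands ANP32A, ANP32B and SET fell (log2 -1.27, -1.63 and -2.24). So did the methyltransferase CARM1 (-0.96) and the kinases CHEK2 (-5.24) and CDK1, which phosphorylate ELAVL1. CDK1, also a cell cycle kinase, fell most, from 158 ± 10.5 to 1.71 ± 0.684 CPM (log2 -6.65 ± 0.21, adjusted p = 1.62e-09). The kinase genes PRKCA (log2 1.54) and PRKCB (1.58) rose, as did TNPO2 (0.73), an import receptor of ELAVL1. Its relative TNPO1 fell slightly (log2 -0.33, adjusted p = 0.0263), a call lost under 5 alternatives (adjusted p from 0.0508 to 0.0868): total counts only, the replicate block, and leaving out replicate 3 of day 0 or replicate 1 or 2 of day 30. KIF3A, a motor protein subunit, rose most, from 26.6 ± 1.97 to 237 ± 18.4 CPM (log2 3.06 ± 0.13, adjusted p = 6.58e-09). SMN1 and SMN2, near-identical copies whose reads may not be told apart, had 0.353 ± 0.224 and 0.0859 ± 0.149 CPM on day 0 and were not tested.

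Of 30 mRNAs listed as ELAVL targets 28 were tested, and 10 rose, 15 fell and 3 did not pass (median log2 -0.46). ACHE, the acetylcholinesterase that ends cholinergic signals, rose most, from 4.71 ± 1.97 to 167 ± 8.22 CPM (log2 5.02 ± 0.23, adjusted p = 1.24e-08). GAP43, the growth cone protein bound by ELAVL4 and also among the neuronal markers above, rose from 28.1 ± 3.79 to 673 ± 112 CPM (log2 4.49). CCNA2, a cyclin, fell most, from 154 ± 12.7 to 3.62 ± 1.02 CPM (log2 -5.57 ± 0.18, adjusted p = 1.75e-09), and CCNB1 and MYCN also fell (log2 -5.09 and -3.08). Among those that did not pass were SERPINI1 (log2 0.33, adjusted p = 0.146) and XIAP (0.18, adjusted p = 0.244), and XIAP passed without day 30 replicate 3 (adjusted p = 0.0254).

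Of 15 mRNAs listed as CELF targets 12 were tested, and 7 rose, 4 fell and 1, INSR, did not pass (log2 0.10, adjusted p = 0.411, median of the list 0.91). GRIN1, the obligatory NMDA receptor subunit, rose most among those with enough reads on both days, from 0.781 ± 0.32 to 8.25 ± 1.7 CPM (log2 3.24 ± 0.35, adjusted p = 9.51e-06). TNNT2, cardiac troponin T, fell most, from 4.34 ± 1.8 to 0.787 ± 0.347 CPM (log2 -2.57 ± 0.43, adjusted p = 0.000234), and TNF had 0 reads. The other falls were ACTN1 (log2 -1.73), CEBPB (-1.01) and CDKN1A (-0.54, adjusted p = 0.0296). CDKN1A did not pass without day 0 replicate 2 (adjusted p = 0.056), without day 0 replicate 3 (adjusted p = 0.0519) or with total counts as the only scaling (log2 -0.45, adjusted p = 0.0795). The counts are per gene and hold no splicing, poly(A) or half-life values, so for both target lists they give levels alone.

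Promoter sequence, as the 250 bases before each transcript start listed by RefSeq (GRCh38.p14), was found for 8 members in 33 windows. CELF3 and CELF5, genes of the same branch that rose together and have 1 listed start each, are shown because their promoters are unlike. Windows were searched on both strands for 8 short motifs, and matches are in capitals, written 5′ to 3′ on the gene's strand. No match of one motif overlapped a match of another in the 33 windows. The motifs were the TATA box TATAAA (in 10.7% of all 35116 windows), the SP1 core GGGCGG (42.6%), the CCAAT box (32.0%), the E-boxes CAGCTG (14%) and, with another centre, CAGATG (12.2%), the parts of the REST site, CAGCACC (6.16%) and, as its other part, GGACAG (17.2%), and the NRF1 core CGCATGCG (1.73%). CELF3 is at chr1:151716804-151717053, minus strand, and CELF5 at chr19:3224411-3224660, plus strand.
CELF3: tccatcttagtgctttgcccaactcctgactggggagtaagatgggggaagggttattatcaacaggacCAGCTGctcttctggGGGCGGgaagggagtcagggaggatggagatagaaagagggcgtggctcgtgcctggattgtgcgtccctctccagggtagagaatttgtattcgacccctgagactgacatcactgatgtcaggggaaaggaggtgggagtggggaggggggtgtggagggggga
CELF5: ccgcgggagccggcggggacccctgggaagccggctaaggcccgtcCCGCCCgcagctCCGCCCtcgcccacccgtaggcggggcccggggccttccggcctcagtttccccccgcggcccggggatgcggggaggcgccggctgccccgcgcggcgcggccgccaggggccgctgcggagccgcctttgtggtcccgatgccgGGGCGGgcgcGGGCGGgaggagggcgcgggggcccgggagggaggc
The CELF3 window had 5 CpG and 57.2% GC, close to the median GC of 58% over all windows and under their median of 11 CpG. It held 1 SP1 core and 1 E-box CAGCTG. The CELF5 window had 38 CpG and 84.0% GC, and 96.7% of windows had fewer CpG. It held 4 SP1 cores and no other motif searched. None of the 33 windows held the NRF1 core. A match is a description of the letters, not a bound site.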

How the data were processed

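Per the labels' protocols, TRIzol-extracted RNA was freed of ribosomal RNA, and a stranded TruSeq kit and an Illumina NovaSeq instrument were used. The submitters' processing notes list FastQC 0.11.9 and build hg38. Aligner, counter, annotation release and strand setting: not given in the sources used here. Each deposited value was taken to be an expected count per gene, read from the values alone: 83.7% of values above 0 were exactly whole and the others held fractions of reads, whose origin is not stated. They were rounded to whole numbers for testing, where raw counts had been assumed, and CPM were taken from the deposited counts and library totals. Columns of values not used numbered 0.

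Day 30 was tested against day 0 over 18040 genes in R 4.3.3 with edgeR 4.0.16 (quasi-likelihood test, TMM scaling, filterByExpr, 2-sided, adjusted p threshold 0.05). The SE is the log2 fold change over the root of the F statistic. Alternatives were DESeq2 1.42.0, limma 3.58.1 (voom), total counts only, no filter, a filter of 20 counts in 3 libraries, fractions rounded down, a replicate block, each library left out and, chosen after seeing the data, reads of overlapping entries added. The procedure was tested on simulated data. Total counts of 5013643 to 12924842 set the precision of low genes. For a group with under 1 read, 3 counts over the group served as a floor, which with intervals covers counting error only. Exon lengths came from GENCODE 29, which matched 94.3% of entries, although identifier versions of the table are newer. The members and the 18 gene lists (both families, 6 related and 10 of cell types) were chosen with earlier results of these data known. Named genes are all members, the largest passing rise and fall of each list with at least 10 counts on each day, MBNL1, PTBP1, ZFP36L1 and the 2 genes most like each member. Other list genes named were chosen after their values were seen. Some list genes are not reported here by name.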

Additional observations from a re-analysis of the deposited data

How the results depend on the processing

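All 10 members kept their direction and passed under each of the 14 alternatives. ELAVL3, ELAVL4, CELF3 and CELF6 exceeded the filter level on day 30 alone and had to differ, so their passing adds no support. The number of genes passing ranged from 6290 to 9147 higher and from 5967 to 7692 lower. Leaving out 1 library gave log2 fold changes of -0.67 to -0.41 for ELAVL1, 2.24 to 2.46 for ELAVL2, 6.82 to 8.13 for ELAVL3, 9.38 to 11.93 for ELAVL4, -0.63 to -0.55 for CELF1, 0.64 to 0.91 for CELF2, 9.17 to 11.05 for CELF3, 5.58 to 6.03 for CELF4, 4.69 to 5.84 for CELF5 and 10.49 to 10.76 for CELF6. The CELF6 range rests on no day 0 read, because its fraction of 0.5 was rounded away for the fits. Other alternatives gave 8.48 (limma-voom) and 2.71 (overlapping entries added). Total counts as the only scaling moved the median of all genes from 0.0809 to 0.174 (log2). The replicate numbers are shared between days, and the labels do not say whether they pair libraries. Deviations of same-numbered libraries correlated at only 0.0746, -0.00402 and -0.0517. Such low values show no shared deviation but cannot exclude a pairing. With a replicate block 6921 genes were higher and 6415 lower, among them all 10 members in the same directions. The members over the filter level on day 30 alone again had to differ. Shares and sums moved with the length used. Without division by length ELAVL1 held 61.9% on day 0 and 12.2% on day 30, CELF1 and CELF2 together held 38.0% on day 30, and the log2 ratios of the family sums were 1.85 (ELAVL) and 1.18 (CELF). With the longest transcript as length ELAVL1 held 50.8% on day 0, beside 48.8% for ELAVL2, and 8.46% on day 30. Depth limits the day 0 values of ELAVL3, ELAVL4, CELF3 and CELF6, which rest on 10.5, 1, 4 and 0.5 reads, so the sizes of their rises are imprecise.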
